A study of Mus musculus with 12 samples.

Results

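Gpnmb and 9 other genes for the recognition and clearance of dead cells were followed in mouse bone marrow, 10 of the 34745 genes in the deposited expression table. The genes were Gpnmb, Trem2, Tyrobp, Mertk, Axl, Gas6, Mfge8, C1qa, C1qb and C1qc, and each was found in the table by its name. Gpnmb was chosen by its rise from the normal to the model group, and the other 9 were added to it with the results of these data known. Their values in the comparison of model with normal are therefore given as a description with no test. The tests of QJSB and leucogen against normal reuse the normal libraries and are no independent results for these genes. Those of QJSB and leucogen against model reuse the model libraries and are no independent results either. RNA of total femoral marrow cells came from 12 ICR mice, an outbred strain, 3 mice in each of 4 groups. The model, QJSB and leucogen mice all received the cytotoxic drug cyclophosphamide, which damages the DNA of proliferating cells, by daily injection of 80 mg/kg on day 5 through day 7. The QJSB mice were also given Qi-Jing-Sheng-Bai granule, a preparation of herbal extracts, by mouth at a daily 3 g/kg for 1 week. The leucogen mice were given leucogen, which is used to raise leucocyte counts, at a daily 20 mg/kg over the same 1 week. The normal and model mice received saline in place of these drugs, and the normal mice also in place of cyclophosphamide. The marrow was not sorted, so that every value is a mean over all cell types present.

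A dying cell exposes phosphatidylserine, a lipid otherwise kept on the inner face of the membrane. The secreted bridging proteins Gas6 and Mfge8 bind this lipid and link the dead cell to receptors on a phagocyte: Gas6 to the tyrosine kinases Mertk and Axl, and Mfge8 to integrins. C1q, made of the chains encoded by C1qa, C1qb and C1qc, starts the classical complement pathway and also marks dying cells for uptake. Trem2 is a lipid receptor of myeloid cells that signals through the adaptor Tyrobp, also called DAP12, which many other receptors of neutrophils, monocytes and natural killer cells share. Gpnmb is a transmembrane glycoprotein of macrophages, osteoclasts and pigment cells that rises in phagocytes with a loaded lysosome. In bone marrow, resident macrophages take up the nuclei that red cell precursors expel as well as aged neutrophils.

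RefSeq promoter windows of build GRCm38.p6, from 250 bases before to 50 bases after the transcription start, were found for 8 of the 10 genes. C1qa and Tyrobp have no entry. The window of Gpnmb is shown because Gpnmb has the widest range of the 10 genes, and those of C1qb and C1qc because these neighbouring genes moved together. Capitals mark 3 motifs searched on both strands: the AP-1 site TGACTCA or TGAGTCA, the E-box CATGTG or CACATG, and the core GAGGAA or TTCCTC of sites bound by PU.1, a myeloid transcription factor. Of 32851 RefSeq promoter windows of this length, 5.20% hold the AP-1 site, 14.2% the E-box and 28.3% the PU.1 core. The palindromic E-box CACGTG, which 7.15% of windows hold, is in none of the 8. The windows are chr6:49036268-49036567 on the plus strand for Gpnmb, chr4:136886151-136886450 on the minus strand for C1qb and chr4:136892865-136893164 on the minus strand for C1qc, each written 5′ to 3′.
Gpnmb: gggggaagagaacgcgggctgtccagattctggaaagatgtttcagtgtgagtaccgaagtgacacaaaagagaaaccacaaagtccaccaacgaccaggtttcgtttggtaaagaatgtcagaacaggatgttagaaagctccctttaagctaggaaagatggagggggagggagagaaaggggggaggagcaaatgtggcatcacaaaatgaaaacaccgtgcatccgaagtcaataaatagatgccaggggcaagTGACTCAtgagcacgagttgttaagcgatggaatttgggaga
C1qb: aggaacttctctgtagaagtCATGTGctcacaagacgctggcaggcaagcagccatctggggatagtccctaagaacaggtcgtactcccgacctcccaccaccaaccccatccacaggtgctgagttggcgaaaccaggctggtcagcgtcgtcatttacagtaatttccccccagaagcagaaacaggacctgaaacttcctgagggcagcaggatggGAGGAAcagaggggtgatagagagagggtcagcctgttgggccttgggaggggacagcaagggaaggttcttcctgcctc
C1qc: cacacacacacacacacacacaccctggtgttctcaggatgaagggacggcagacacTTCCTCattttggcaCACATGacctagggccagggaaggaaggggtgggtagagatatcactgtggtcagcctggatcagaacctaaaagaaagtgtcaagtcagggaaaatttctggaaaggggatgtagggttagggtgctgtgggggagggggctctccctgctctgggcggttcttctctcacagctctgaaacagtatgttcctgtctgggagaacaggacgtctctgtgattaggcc

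The AP-1 site of Gpnmb begins at base 9 of the RefSeq transcript, and the Gpnmb window holds no PU.1 core. In the deposited table the gene begins at 49036546, downstream of this site. The PU.1 core stands 30 bases before the start in C1qb and 193 bases before it in C1qc, and the E-box 230 and 178 bases before it. Trem2, Axl and Mfge8 also hold the PU.1 core, whereas Mertk and Gas6 hold none of the motifs. These matches describe the letters in the windows, and whether a factor binds there was not tested.

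Library totals ran from 11172547 to 18545198 counts, and levels are given as CPM, the count relative to the library's scaled total. A single count was worth between 0.0539 and 0.0895 CPM before scaling. The column headings of the table name the groups only in part, and the assignment of columns to QJSB, leucogen and normal rests in part on values. The 15 macrophage markers summed to between 891 and 1021 CPM in normal, 540 and 703 in model, 657 and 730 in QJSB, and 589 and 653 in leucogen. The 12 erythroid markers found fell from a summed 19938 CPM or more in normal to between 358 and 2180 in the cyclophosphamide groups. Libraries model 1 and QJSB 1 stood apart: their 12 osteoblast and stroma markers summed to 851 and 1000 CPM, against 253 to 498 in the other 10 libraries. The late neutrophil markers of the same libraries summed to 4817 and 7390 CPM, below the 12054 to 58360 of the other 10.

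Gpnmb (ENSMUSG00000029816, chromosome 6, 49036546 to 49070929, plus strand) was nearly silent in normal marrow and clearly present in all 9 marrows that had received cyclophosphamide. The normal libraries held 0.433, 0.205 and 0.205 CPM, which are 6, 3 and 3 counts. The model libraries held 17.4, 22.5 and 31.8 CPM. In the QJSB libraries the values were 14.7, 38.8 and 49.4 CPM, and in the leucogen libraries 7.68, 11.5 and 12.7 CPM. Every cyclophosphamide library thus lay above every normal library, and leucogen lay below both other cyclophosphamide groups without overlap. The pooled counts, 1165 in model and 12 in normal, stood 86.3 times apart after scaling, a value by which the gene was chosen. In bulk marrow, more cells that express a gene and more RNA per such cell cannot be told apart.

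**Figure D1:**
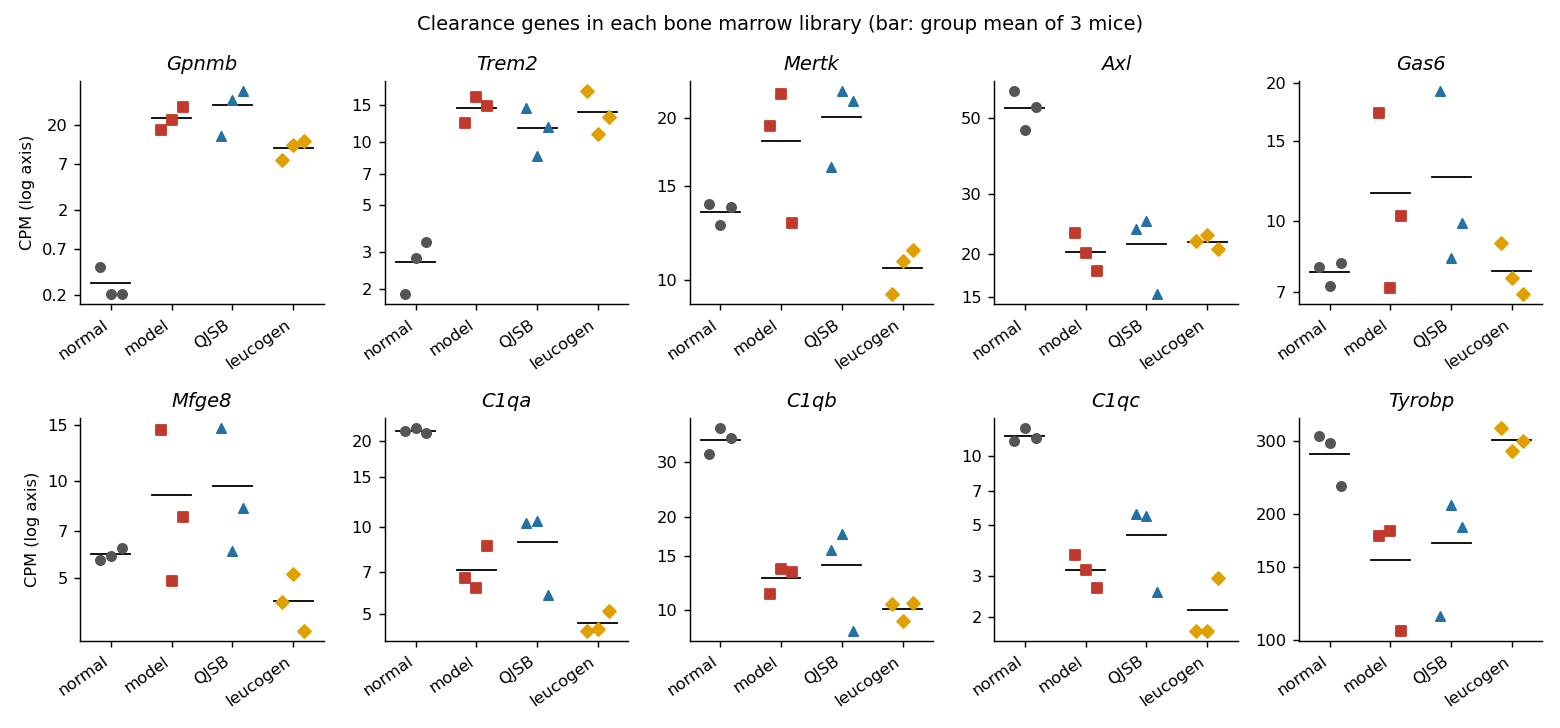
CPM on a log axis of the 10 clearance genes in the 12 libraries, with 1 point per mouse and a bar at the mean of the 3 mice of a group. Gpnmb is at most 0.433 CPM in the normal mice and at least 7.68 CPM in all others, whereas Axl and the 3 C1q genes are highest in the normal mice.

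The level of Gpnmb differed between the drug groups. It was 10.6 ± 2.64 CPM (SD, n = 3) in leucogen and 34.3 ± 17.8 CPM (SD, n = 3) in QJSB, which puts QJSB above leucogen by 1.66 on the log2 scale (standard error 0.44, adjusted p = 0.0283, edgeR quasi-likelihood test with Benjamini-Hochberg adjustment). A gene was called where the adjusted p was under 0.05 and the change over 1.5-fold. This comparison uses none of the libraries on which Gpnmb was chosen. The call was lost without QJSB 2, without QJSB 3 and without each leucogen library in turn (adjusted p = 0.0683 to 0.0959) and without a filter on low counts (adjusted p = 0.0704). Over all 15 alternatives its adjusted p ran from 0.000369 to 0.0959, and the log2 fold change from 1.13 to 2.01. Compared with model, Gpnmb was lower in leucogen (log2 fold change -1.15, standard error 0.27, adjusted p = 0.0153), and QJSB and model overlapped (log2 fold change 0.50, standard error 0.42, adjusted p = 0.800). Without leucogen 1 the difference between leucogen and model missed the threshold (adjusted p = 0.0609). Gpnmb was chosen for its high values in these model libraries, so that a lower value in leucogen is no independent result. The single low library of QJSB, QJSB 1, is also the one with the high stromal and low late neutrophil markers, whose part in this value was not tested.

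Gpnmb did not follow the macrophage markers as a whole. The summed macrophage markers were lower in all 9 cyclophosphamide libraries than in any normal library, while Gpnmb was higher in all 9. Taken against the mean log2 CPM of the 15 macrophage markers in the same library, Gpnmb stood at -5.87 ± 0.34 in normal, 0.84 ± 0.71 in model, 1.23 ± 1.09 in QJSB and -0.08 ± 0.49 in leucogen (SD, n = 3, log2 units). Among macrophage markers, the phosphatidylserine receptor Timd4 fell in model against normal by a log2 fold change of -1.94 and the high-affinity Fc receptor Fcgr1 rose by 1.59, both past the cutoff. Osteoclasts and pigment cells also express Gpnmb. The 11 osteoclast markers summed to between 840 and 1091 CPM in normal, 398 and 517 in model, 435 and 988 in QJSB, and 842 and 1018 in leucogen. Mmp9 stands both in this list and among the late neutrophil markers. It moved by log2 fold changes of -2.79 in model against normal and 2.77 in leucogen against model (adjusted p = 0.0152 and 0.0334). The part of Mmp9 in these sums was not tested. Of 7 osteoclast markers tested, 2 rose and 2 fell in model against normal. The proton pump subunit Atp6v0d2 was higher than normal in model, QJSB and leucogen (log2 fold changes 1.68, 1.15 and 2.10, adjusted p = 0.00384, 0.0405 and 0.00231). The receptor Tnfrsf11a was also higher than normal in each (0.91, 0.81 and 0.72, adjusted p = 0.0458, 0.0194 and 0.0245), while the fusion gene Ocstamp stayed at or below 0.292 CPM. In contrast, Acp5 was lower than normal in each (-2.06, -1.70 and -2.42, adjusted p = 0.00117, 0.0125 and 1.39e-06), and Ctsk was lower in QJSB (-1.35, adjusted p = 0.0430). Of 5 pigment cell markers, Tyrp1, Dct and Tyr had 0 counts in all 12 libraries and Mlana at most 0.158 CPM. Pmel lay between 0.0722 and 0.205 CPM in normal, 0.425 and 0.700 in model, 0.756 and 1.52 in QJSB, and 0.380 and 0.653 in leucogen, and was called higher in QJSB than in normal (2.81, adjusted p = 0.00576). The part of these cells in the Gpnmb values was not tested.

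Trem2 (ENSMUSG00000023992, chromosome 17, 48346401 to 48354147, plus strand) was the other gene higher in every cyclophosphamide library. Normal libraries held 1.88, 2.80 and 3.34 CPM and model libraries 12.4, 16.4 and 14.9 CPM. QJSB libraries held 14.5, 8.57 and 11.8 CPM and leucogen libraries 17.4, 10.9 and 13.1 CPM. The 3 cyclophosphamide groups overlapped one another fully, and none of the comparisons among them passed the cutoff (log2 fold changes -0.34, -0.06 and -0.28 for QJSB against model, leucogen against model and QJSB against leucogen, adjusted p = 0.784, 0.865 and 0.444). Against normal, Trem2 was higher in QJSB by 2.11 (standard error 0.30, adjusted p = 0.00113) and in leucogen by 2.38 (standard error 0.26, adjusted p = 4.4e-05) on the log2 scale. The mean rise from normal to model was 5.45-fold in CPM.

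Tyrobp (ENSMUSG00000030579, chromosome 7, 30413788 to 30417577, plus strand), the signalling partner of Trem2, moved another way. Normal libraries held 308, 296 and 234 CPM, and model libraries 177, 183 and 105 CPM. QJSB libraries held 115, 210 and 187 CPM, and leucogen libraries 322, 284 and 299 CPM. Leucogen thus lay in the range of normal or above it, and both other cyclophosphamide groups lay below normal. Tyrobp was higher in leucogen than in model (log2 fold change 0.97, standard error 0.21, adjusted p = 0.0119) and lower in QJSB than in leucogen (-0.86, standard error 0.22, adjusted p = 0.0210). The first call missed the threshold without leucogen 3 (adjusted p = 0.0504) and by limma on FPKM (adjusted p = 0.0504 and 0.0528), and the second without leucogen 1 (adjusted p = 0.0747) or leucogen 3 (adjusted p = 0.0701). The fall in QJSB against normal (-0.72, standard error 0.23, adjusted p = 0.0338) was lost without normal 1 or normal 2, with adjusted p = 0.107 and 0.102, without QJSB 3 (adjusted p = 0.0630), and by its size without QJSB 1 (-0.50). Late neutrophil markers, of cells that also express Tyrobp, summed to between 49158 and 58360 CPM in leucogen, 19394 and 23130 in normal, 4817 and 19913 in model, and 7390 and 38095 in QJSB. Their part in the Tyrobp values was not tested. On the length-scaled FPKM, the level of Tyrobp exceeded that of Trem2 by 760 to 1776 times in normal libraries and by 76.7 to 283 times in cyclophosphamide libraries.

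Mertk and Axl, the tyrosine kinase receptors for Gas6, moved apart. Mertk (ENSMUSG00000014361, chromosome 2, 128698956 to 128802894, plus strand) held 13.9, 12.7 and 13.7 CPM in normal, 19.4, 22.2 and 12.8 in model, 16.3, 22.4 and 21.5 in QJSB, and 9.43, 10.9 and 11.4 in leucogen. Leucogen libraries were the lowest of all, below every normal library, and QJSB libraries lay above every normal library. Mertk was higher in QJSB than in leucogen by 0.89 on the log2 scale (standard error 0.19, adjusted p = 0.0115), which held under 14 of 15 alternatives and missed the threshold without leucogen 1 (adjusted p = 0.0537). It was lower in leucogen than in model by -0.76 (standard error 0.24, adjusted p = 0.0415). That call was lost without each leucogen library in turn, without model 1 and without model 2 (adjusted p = 0.0965 to 0.138) and under a block for the replicate number (adjusted p = 0.0758). The gene spans Gm14011 on the opposite strand and Gm23172 on its own strand, and reads of the latter cannot be told apart from its own.

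Axl (ENSMUSG00000002602, chromosome 7, 25757273 to 25788705, minus strand) was highest in normal marrow and alike in size in all other groups. Normal libraries held 60.0, 46.3 and 53.9 CPM, and model libraries 23.0, 20.2 and 17.9 CPM. QJSB libraries held 23.8, 25.1 and 15.3 CPM, and leucogen libraries 21.9, 22.8 and 20.7 CPM. The groups that received cyclophosphamide overlapped. Axl was lower than normal in QJSB (log2 fold change -1.32, standard error 0.21, adjusted p = 0.00176) and in leucogen (-1.27, standard error 0.12, adjusted p = 1.34e-05). QJSB and leucogen lay -0.06 apart on the log2 scale (standard error 0.20, adjusted p = 0.830), with 0.028 when scaled by total counts. The ratio of Mertk to Axl within a library, on FPKM, was 0.324 to 0.383 in normal, 1.00 to 1.54 in model, 0.955 to 1.97 in QJSB and 0.604 to 0.771 in leucogen. The order of the receptors thus turned from Axl above Mertk in every normal library to Mertk level with or above Axl in every model library, and in leucogen Axl stayed above Mertk. Tyro3, the other kinase of this family, reached a mean of 0.695 ± 0.0719 CPM in normal libraries and 0.307 ± 0.0879 CPM in model libraries (SD, n = 3), too low to be tested there. Pros1, the second ligand of the family, rose in model against normal (log2 fold change 1.16, adjusted p = 0.00448) and also in QJSB and leucogen against normal (0.93 and 1.10, adjusted p = 0.0140 and 0.00128).

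Gas6 and Mfge8, the bridging proteins, were high in the same libraries. Gas6 (ENSMUSG00000031451, chromosome 8, 13465374 to 13494535, minus strand) held 7.95, 7.23 and 8.11 CPM in normal, 17.2, 7.15 and 10.3 in model, 19.2, 8.34 and 9.91 in QJSB, and 8.95, 7.54 and 6.93 in leucogen. Mfge8 (ENSMUSG00000030605, chromosome 7, 79133768 to 79149060, minus strand) held 5.71, 5.87 and 6.21 CPM in normal, 14.5, 4.88 and 7.76 in model, 14.7, 6.06 and 8.26 in QJSB, and 4.20, 5.15 and 3.42 in leucogen. For both genes the highest values were those of model 1 and QJSB 1. In these libraries the bone collagen gene Col1a1 stood at 306 and 426 CPM, against 21.4 to 109 CPM in the other 10. The part of stromal RNA in the Gas6 and Mfge8 values was not tested.

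Mfge8 was higher in QJSB than in leucogen (log2 fold change 1.15, standard error 0.35, adjusted p = 0.0391), and the 3 libraries of one group lay above the 3 of the other. Without QJSB 1 the log2 fold change was 0.71 with adjusted p = 0.0731, and the call was also lost without QJSB 3, without each leucogen library and on FPKM (adjusted p over all alternatives 0.0131 to 0.147). Between leucogen and model the difference of -1.07 missed the threshold (standard error 0.39, adjusted p = 0.0676) and passed it without model 2 (-1.33, adjusted p = 0.0191), by DESeq2, without a filter and with total counts. Gas6 passed the cutoff in none of the 5 comparisons tested, with a log2 fold change of 0.64 for QJSB over leucogen (standard error 0.32, adjusted p = 0.163). Without QJSB 2 it was called higher in QJSB than in normal, as was Mfge8 (log2 fold changes 0.91 and 0.96, adjusted p = 0.0482 and 0.0349), and Mfge8 was called lower in leucogen than in normal without leucogen 2 (-0.62, adjusted p = 0.0419). The locus of Gas6 overlaps that of Tmem255b on the opposite strand. The libraries were strand-specific, but whether the counting used the strand is not given in the sources used here.

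**Figure D2:**
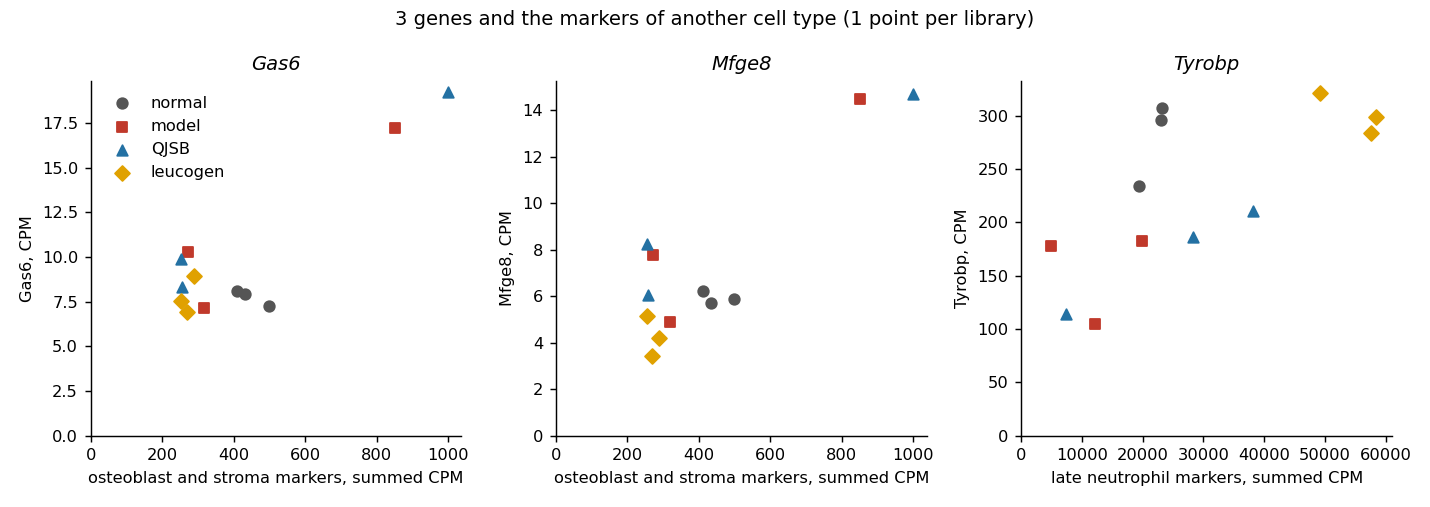
CPM of Gas6 and Mfge8 against the summed CPM of 12 osteoblast and stroma markers, and of Tyrobp against the summed CPM of 12 late neutrophil markers, with 1 point per library and a symbol per group. Model 1 and QJSB 1 stand apart at 851 and 1000 CPM of stromal markers with the highest Gas6 and Mfge8, and the leucogen libraries stand at the highest late neutrophil sums.

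The C1q genes lie side by side on the minus strand of chromosome 4 within 18675 bases (136880129 to 136898803), in the order C1qb, C1qc and C1qa, and all 3 were highest in normal marrow. C1qa (ENSMUSG00000036887) held 21.7, 22.2 and 21.2 CPM in normal, 6.64, 6.16 and 8.58 in model, 10.4, 10.6 and 5.81 in QJSB, and 4.36, 4.42 and 5.13 in leucogen. C1qb (ENSMUSG00000036905) held 32, 38.8 and 35.9 CPM in normal, 11.3, 13.6 and 13.3 in model, 15.6, 17.7 and 8.57 in QJSB, and 10.5, 9.21 and 10.5 in leucogen. C1qc (ENSMUSG00000036896) held 11.6, 13.2 and 11.9 CPM in normal, 3.70, 3.18 and 2.68 in model, 5.56, 5.48 and 2.57 in QJSB, and 1.74, 1.74 and 2.94 in leucogen. No cyclophosphamide library reached the lowest normal library for any of these genes. QJSB 3 was the lowest QJSB library for all 3 genes and lay below every model library.

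Summed over the 3 genes, C1q stood at 69.4 ± 4.45 CPM (SD, n = 3) in normal, 23.0 ± 1.43 in model, 27.4 ± 9.11 in QJSB and 16.8 ± 1.64 in leucogen. Against normal, the log2 fold changes of C1qa, C1qb and C1qc were -1.29, -1.35 and -1.43 in QJSB (adjusted p = 0.00378, 0.00436 and 0.00663) and -2.21, -1.80 and -2.50 in leucogen (adjusted p = 1.26e-06, 2.58e-06 and 1.41e-05). All 6 passed the cutoff under every alternative that gave a value. Between the drug groups C1qa alone was called, higher in QJSB than in leucogen (log2 fold change 0.90, standard error 0.27, adjusted p = 0.0386). This call was lost without QJSB 1, without QJSB 2 and without each leucogen library (adjusted p = 0.0620 to 0.120) and when the replicate number was fitted as a block (adjusted p = 0.0561). For C1qb and C1qc the same comparison gave 0.43 and 1.05 (adjusted p = 0.253 and 0.0743), and without QJSB 3 both were called higher in QJSB (0.68 and 1.32, adjusted p = 0.0467 and 0.0360), as was C1qc with all 12 libraries in the fit (1.08, adjusted p = 0.0226). Whether the C1q genes differ among themselves in this respect was not tested. On FPKM, C1qb exceeded C1qa in every library, by 1.41 to 2.29 times, and C1qa exceeded C1qc by 3.48 to 6.60 times.

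The falls of C1q and Axl went with those of several markers of resident macrophages. Of 14 macrophage markers tested between model and normal, 8 fell and 2 rose, with a median log2 fold change of -0.92 against 0.02 over all 14752 genes tested. Those that rose were Csf1r (0.81, adjusted p = 0.00273) and Fcgr1 (1.59, adjusted p = 0.00146). Cd163, the scavenger receptor for haemoglobin bound to haptoglobin, stood at 28.8 to 40.2 CPM in normal and at 2.37 to 22.5 CPM in the cyclophosphamide libraries. The scavenger protein gene Cd5l fell by a log2 fold change of -1.66 in model against normal. In leucogen against model, 4 of the 14 markers were lower and 2 higher, beside 11.5% and 11.6% of all genes. The higher ones were Cd5l (1.09, adjusted p = 0.0423) and Slc40a1 (1.18, adjusted p = 0.00503). Relative to the mean of the macrophage markers in the same library, C1qb stood at 0.60 ± 0.23 in normal and -0.02 ± 0.37 in model (SD, n = 3, log2 units), and C1qc at -0.93 ± 0.18 and -1.98 ± 0.13. Of the monocyte markers, 6 of 11 rose in model and 1 fell, and their sum was higher in every cyclophosphamide library (2052 to 4698 CPM) than in any normal library (1171 to 1384 CPM). The part of macrophage or monocyte numbers in these values was not tested.

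Counted together, the libraries of model and normal did not overlap for 7 of the 10 genes, where 55.4% of all genes tested did not overlap. Gpnmb and Trem2 were above, Tyrobp, Axl and the 3 C1q genes below, and Mertk, Gas6 and Mfge8 overlapped. In QJSB against normal, 2 of the 10 were called higher and 5 lower, beside 18.0% and 19.9% of all genes. In leucogen against normal, 2 were called higher and 4 lower, beside 17.8% and 19.8% of all genes. These comparisons share the normal libraries with the one on which Gpnmb was chosen, so that the direction of Gpnmb in them is no independent result. Mertk was close to the cutoff in QJSB against normal, with an adjusted p of 0.0258 and a log2 fold change of 0.58 that passed the 1.5-fold limit without QJSB 1 (0.70).

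Among the cyclophosphamide groups, QJSB and model differed in none of the 10 genes by the edgeR test, and 0.00% of the 14486 genes tested were called. None of the 10 had an unadjusted p under 0.05, a level that 4.99% of all genes reached, and none was called by DESeq2 or limma. DESeq2 called 4 genes higher and 4 lower over the whole table, and edgeR called 14 and 4 when the replicate number was fitted as a block, 16 and 7 without model 1 and QJSB 1, and 2 and 1 without QJSB 1 alone, in each case with no member among them. The largest differences were at Gpnmb (log2 fold change 0.50, standard error 0.42) and C1qc (0.49, standard error 0.36), so that changes of this size cannot be told from the spread between mice. In leucogen against model, Tyrobp was called higher, beside 11.6% of all genes, and Gpnmb and Mertk lower, beside 11.5%. In QJSB against leucogen, Gpnmb, Mertk, Mfge8 and C1qa were called higher, beside 12.9% of all genes, and Tyrobp lower, beside 11.7%. In each of the 5 the libraries of QJSB and leucogen did not overlap, as in 48.9% of all genes tested, and the exact two-sided permutation test gave p = 0.1, the smallest that 3 against 3 libraries allow. The count of 5 fell to 0 without leucogen 1, to 1 without leucogen 3, to 2 without leucogen 2, and to 3 without QJSB 1 or QJSB 2. Calls over all genes, 1836 higher and 1675 lower, fell to 1092 and 1065 without leucogen 1 and 769 and 775 without leucogen 3. They were 1589 and 1330 without leucogen 2, 1775 and 1810 without QJSB 1, and 1546 and 1433 without QJSB 2. The median log2 fold change of the 10 genes was 0.77 for QJSB over leucogen and -0.56 for leucogen over model, against 0.03 and -0.05 over all genes. These comparisons share the leucogen libraries, and leucogen over model also uses the model libraries on which Gpnmb was chosen.

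**Figure D3:**
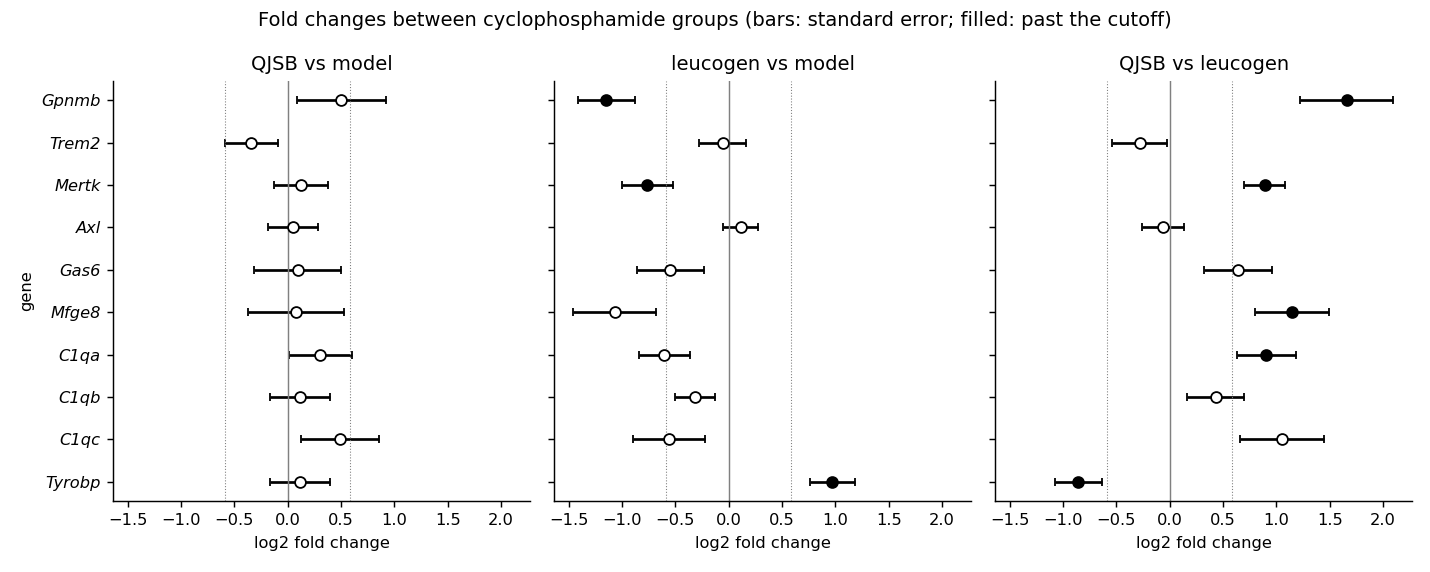
Log2 fold change of each gene in 3 comparisons among the cyclophosphamide groups, with bars of 1 standard error, dotted lines at a 1.5-fold change and filled points for genes past the cutoff. No point is filled for QJSB vs model, whereas Gpnmb and Mertk lie at -1.15 and -0.76 for leucogen vs model and at 1.66 and 0.89 for QJSB vs leucogen.

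The rest of the clearance pathway was described with 7 lists of 118 other genes. In model against normal, 38 of 114 tested were called higher, beside 16.1% of all genes, and 17 lower, beside 19.0%. Of 24 lysosome genes, 15 rose and 1, the regulator Tfeb, fell, with a median log2 fold change of 0.87. The largest were the transcription factor Tfec (2.39, adjusted p = 0.000166), the galactosidase Gla (2.13, adjusted p = 7.97e-05), the glucuronidase Gusb (1.70, adjusted p = 8.88e-05) and the protease Ctsz (1.67, adjusted p = 0.000255). Of 14 engulfment genes tested, 5 rose and none fell, led by Dock1 (1.28, adjusted p = 0.000194) and Trio (1.09, adjusted p = 0.000328).

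Recognition genes split. Of 19 tested in model against normal, 8 rose and 3 fell. The scavenger receptor Scarf1 rose by 2.35 (adjusted p = 0.000333) and the large endocytic receptor Lrp1 by 2.05 (adjusted p = 1.14e-05), while the fatty acid and dead-cell receptor Cd36 fell by 4.29 (adjusted p = 0.000271) and Timd4 by 1.94 (adjusted p = 0.00134) on the log2 scale. Lrp1 stood at 107 ± 3.97 CPM in normal, 447 ± 31.8 in model, 467 ± 38.5 in QJSB and 213 ± 28.8 in leucogen (SD, n = 3). Cd36 went from 266 ± 5.06 CPM in normal to 13.6 ± 7.05 in model (SD, n = 3). Cd36 is also a gene of red cell precursors, whose markers fell in the same libraries.

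Lists around lipids, Trem2 signalling, complement and signals of the dying cell had calls in both directions. Of 19 lipid handling genes, 4 rose and 5 fell in model against normal (5 and 4 when scaled by total counts). The cystatin gene Cst7 rose by 3.47 (adjusted p = 0.000419) and the lipid droplet coat gene Plin2 by 1.19 (adjusted p = 0.000171), while Mylip, which directs the degradation of lipoprotein receptors, fell by 1.99 (adjusted p = 2.99e-05) and the nuclear receptor Pparg by 1.02 (adjusted p = 0.0181) on the log2 scale. Of 15 genes of Trem2 and Tyrobp signalling, 1 rose and 3 fell (2 and 3 by total counts). These were Trem3 (0.59, adjusted p = 0.0377), the kinase Syk that docks on Tyrobp (-1.11, adjusted p = 0.000205), the receptor Cd33 (-1.09, adjusted p = 0.0255) and the adaptor Pik3ap1 (-0.80, adjusted p = 0.00629). Of 13 other complement genes, 3 rose and 2 fell (4 and 1 by total counts), with the integrin Itgax at -1.76 (adjusted p = 0.000484). Of 10 genes of attraction and do-not-eat-me signals, 2 rose and 3 fell. The sphingolipid receptor S1pr1, the surface protein gene Cd24a and the lectin Siglecg, all expressed by B cells, stood at log2 fold changes of -3.08, -3.04 and -2.54 (adjusted p = 1.74e-05, 0.000103 and 8.9e-06), beside falls of 9 of 10 B cell markers and of all 12 erythroid markers. In leucogen against model, Cd24a and Siglecg were higher (1.23 and 0.81, adjusted p = 0.0119 and 0.0103). There 1 of 6 B cell markers tested was lower and 0 were higher. The part of B cells in these values was not tested.

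Between the drug groups, the lysosome genes followed the direction of Gpnmb more often than not. In QJSB against leucogen 12 of 24 lysosome genes were higher and 2 lower, with a median log2 fold change of 0.59, beside 12.9% and 11.7% of all genes. In leucogen against model 1 was higher and 9 lower, with a median of -0.53, beside 11.6% and 11.5% of all genes. The cathepsin Ctsl stood at 50.9 ± 11.3 CPM in model, 56.3 ± 4.86 in QJSB, 16.4 ± 0.981 in leucogen and 21.9 ± 0.411 in normal (SD, n = 3). It was higher in QJSB than in leucogen by 1.74 on the log2 scale (adjusted p = 0.00272), as were the macrophage glycoprotein gene Cd68 (1.27, adjusted p = 0.0123) and Ctsz (1.17, adjusted p = 0.00345). Both lower genes were Tfec and Lamp2, at -0.75 and -0.69. Of lipid handling genes 6 of 19 were higher and 1 lower, with Cst7 at 1.73 (adjusted p = 0.00285) and the lipoprotein gene Apoe at 1.37 (adjusted p = 0.00334). Of recognition genes 6 of 19 were higher and none lower (5 and 1 by total counts), with the eat-me signal Calr at 1.73 (adjusted p = 0.00623), Stab1 at 1.36 (adjusted p = 0.00507) and Havcr2 at 1.19 (adjusted p = 0.0221). Clec5a, a receptor that signals through Tyrobp, was lower in QJSB (-1.70, adjusted p = 0.00329), the direction of Tyrobp itself.

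In all, 27 of 114 genes of the 7 lists were higher in QJSB than in leucogen, beside 12.9% of all genes, and 6 lower, beside 11.7%. The total fell to 16 without leucogen 3, where calls over all genes fell from 1836 higher and 1675 lower to 769 and 775. In leucogen against model, 13 of 115 were higher, close to the 11.6% of all genes, and 22 lower, beside 11.5% (11 and 31 by total counts, a scaling that shifts the median of all genes in that comparison by -0.17). There Cd33 (1.75, adjusted p = 0.00740), Clec5a (1.48, adjusted p = 0.00808) and the apoptotic-cell binding annexin Anxa1 (1.77, adjusted p = 0.0245) rose, and Ctsl (-1.61, adjusted p = 0.00201), Plin2 (-1.39, adjusted p = 0.00194) and Calr (-1.63, adjusted p = 0.00302) fell. Without leucogen 3 that total fell from 35 to 20, and calls over all genes fell from 1640 higher and 1635 lower to 743 and 496. In QJSB against model none of the 114 genes was called by edgeR, and the smallest p values of the lists, at Abcg1, Itgav and Ctss among others, had an adjusted p of 0.767.

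Against normal, the drug groups kept calls in both directions. In QJSB 41 of 115 list genes were higher than normal, beside 18.0% of all genes, and 16 lower, beside 19.9%. In leucogen 35 of 114 were higher, beside 17.8%, and 20 lower, beside 19.8%. Lysosome genes counted 14 higher and 1 lower in QJSB, led by Gla (2.17, adjusted p = 5.87e-05), and 9 higher and 3 lower in leucogen, led by Tfec (2.68, adjusted p = 9.25e-07). Cst7 was higher in both (3.80 in QJSB and 2.06 in leucogen, adjusted p = 1.6e-05 and 2.84e-05), and Cd36 lower in both (-4.88 and -5.34, adjusted p = 5.6e-06 and 2.18e-09). Clec5a was higher than normal in leucogen (2.18, adjusted p = 5.1e-07). Both comparisons share the normal libraries.

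**Figure D4:**
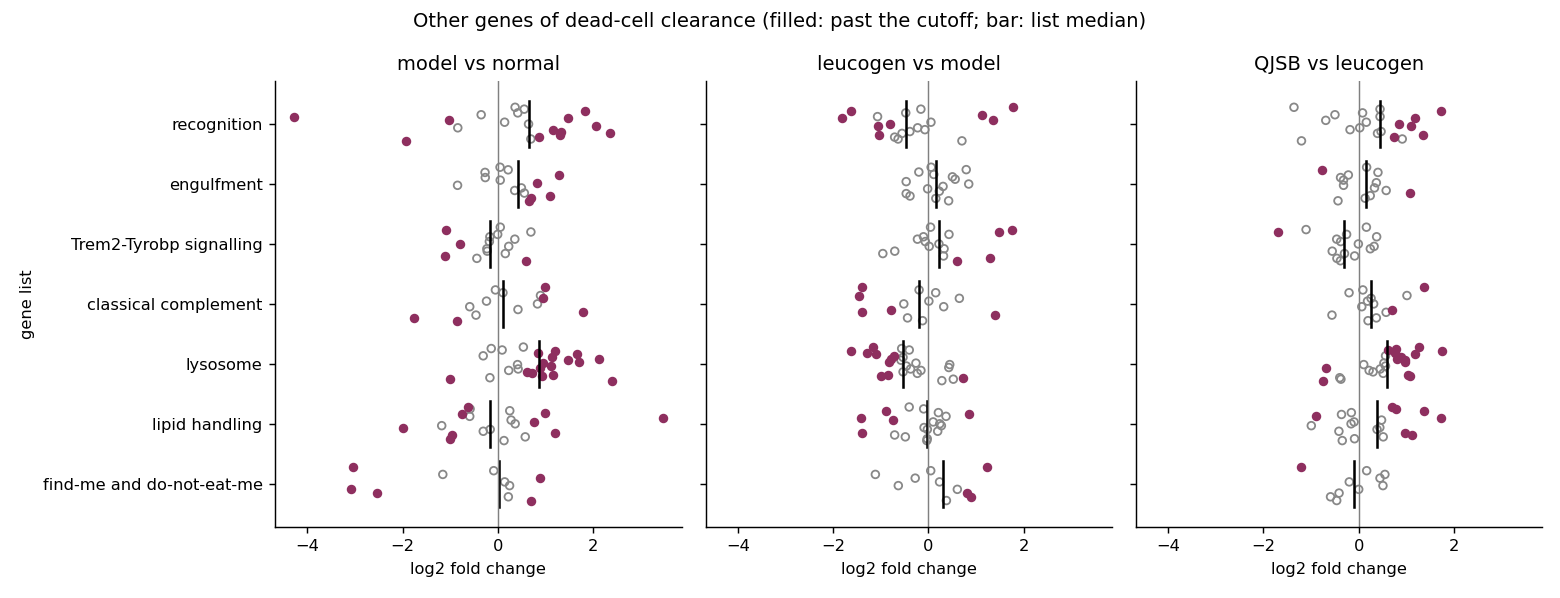
Log2 fold change of every tested gene of the 7 clearance lists in model vs normal, leucogen vs model and QJSB vs leucogen, with filled points past the cutoff and a bar at the list median. Lysosome genes have medians of 0.87, -0.53 and 0.59, and the lowest point in the first panel is Cd36 at -4.29.

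The profiles most like that of Gpnmb over the 12 libraries were looked for among 10650 other genes, by the root mean square difference of log2 CPM after centring each gene on its own mean. The closest were Dmkn (0.99), Tctex1d1 (1.08), Adam3 (1.12), Gstm1 (1.14) and Ctsg (1.14). All differed by about 1 log2 unit, and Trem2 differed by 1.72. The measure is not scaled for the range of a gene, so that the same pattern with a smaller range also counts as a difference. Whether a gene follows the pattern of Gpnmb apart from its range was not tested. Ctsg, a protease of the primary granules of neutrophil precursors, stood at 140 ± 28.1 CPM in normal, 1785 ± 357 in model, 1548 ± 156 in QJSB and 1084 ± 57.8 in leucogen (SD, n = 3). Gstm1, a glutathione transferase, stood at 24.8 ± 3.33, 242 ± 97.1, 381 ± 64.7 and 134 ± 48.2 CPM in the same order, and like Gpnmb was lowest in normal and highest in QJSB. Over the 9 cyclophosphamide libraries alone the closest were Cebpb (0.35), Trappc6a (0.35), Ubald2 (0.36), Spsb1 (0.37) and Hist1h3i (0.37), and 0 of these were among the 5 of all libraries. Cebpb, a transcription factor of myeloid cells, stood at 24.9 ± 10.7 CPM in model, 35.3 ± 12.5 in QJSB and 12.4 ± 3.95 in leucogen (SD, n = 3), the order of the groups for Gpnmb. The genes of both searches were taken for their likeness to Gpnmb, so that a shared order of groups follows from the selection and is no separate result.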

How the data were processed

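The authors filtered the reads of 12 ribosome-depleted, strand-specific libraries with Seqtk, aligned them to mm10 with Hisat2 and deposited 2 values for each of 34745 genes, the raw read count and the FPKM. The counting program and the annotation version are not given in the sources used here. Columns headed Blank, Positive and Stilbene were taken for normal, leucogen and QJSB from what the words mean and from the groups left over, and this reading was then compared with the study's mean normalized counts. Under it 298 of 298, 297 of 297 and 300 of 300 genes of its lists matched within 1%, and under any other reading at most 10. 0 sample columns were left unused. Members and gene lists were chosen with earlier results of these data known.

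Counts were tested with edgeR 4.0.16 in R 4.3.3 (TMM, filterByExpr, robust glmQLFit and glmQLFTest) on the libraries of the 2 groups compared, over all genes tested, with Benjamini-Hochberg adjustment. A gene was called past a 1.5-fold change in either direction with an adjusted p under 0.05. CPM were scaled with TMM factors over all 12 libraries, and log2 CPM used a prior count of 2. Levels of different genes were compared on the deposited FPKM. Depth ran from 11172547 to 18545198 counts per library. RNA came from separate mice, and p-values measure the spread between these mice. Every pair of libraries of a group differed by more than sampling noise.

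All 10 members are named. From each pathway list up to 4 called genes were taken in model against normal and up to 3 in each other comparison, by the largest absolute log2 fold change, or the gene with the smallest p where none was called, and of these the text names a part. Lysosome genes lower in QJSB than in leucogen, Pros1, Tyro3, Gm14011, Gm23172, Tmem255b and single marker genes were named after their values were seen. Likeness to Gpnmb was measured among genes whose normalized count averaged 50 or more, without gene models and gene segments. Promoters came from RefSeq, build GRCm38.p6. A result for 1 gene of the lists is not reported here. Coordinates of genes are those of the deposited table.

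Alternatives were DESeq2 1.42.0, DESeq2 size factors or total counts as scaling, no filter, a minimum of 10 counts per library, a joint fit over all 12 libraries, a block for the replicate number, limma 3.58.1 on log2(FPKM + 0.1) or log2(FPKM + 1) where the mean FPKM reached 0.1, and leaving out each library. Leaving out model 1 and QJSB 1 together was chosen after seeing the data. Same-numbered libraries of QJSB and model deviated together over 15310 genes (correlations 0.426, 0.122 and 0.107), and those of QJSB and leucogen by 0.181, 0.134 and 0.078. Deviations were taken from group means, so that model 1 and QJSB 1 standing apart together also raise the other correlations of QJSB with model. No pairing of mice is stated, and these values cannot show one. The tests were run on simulated counts of QJSB against leucogen with known changes. These counts had 1 common spread for all genes and no outlying library, so that they do not show how the tests perform on the real libraries.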

Additional observations from a re-analysis of the deposited data

Results flagged for a closer look

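The QJSB and leucogen groups, which both received cyclophosphamide, differed by the direct edgeR test at 5 of the 10 genes. The log2 fold changes of QJSB against leucogen were 1.66 for Gpnmb, 0.89 for Mertk, 0.90 for C1qa, 1.15 for Mfge8 and -0.86 for Tyrobp. None of the 10 was called in QJSB against model. Each call was lost when at least 1 library was left out, and leaving out leucogen 1 ended all 5. Without leucogen 1, calls over all genes also fell, from 1836 higher and 1675 lower to 1092 and 1065. Groups of 3 libraries are too small for a test of outlying libraries.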

How the results depend on the processing

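The count of members called kept within 1.5 times its value under every alternative for QJSB against model (0), QJSB against normal (7) and leucogen against normal (6), as did the count of list genes for model against normal (55), QJSB against model (0), QJSB against normal (57) and leucogen against normal (55). Of 3 members called in leucogen against model, total counts gave 5 and leaving out a library 1 to 3; of 5 in QJSB against leucogen, leaving out a library gave 0 to 5. The 35 list genes called in leucogen against model became 20 to 39 and the 33 in QJSB against leucogen 16 to 38 without a library. Calls over all genes fell without leucogen 3 too, to 743 higher and 496 lower and to 769 and 775 in the same comparisons. With the replicate block, 0 members were called in QJSB against model, and the calls over all genes went from 0 to 14 higher and 4 lower. The block gave 2 of 10 in leucogen against model and 4 in QJSB against leucogen. The replicate number is not known to pair mice in any comparison. Small values changed sign. In QJSB against model total counts gave -0.036 for Axl and -0.0014 for Tyrobp, limma on log2(FPKM + 0.1) -0.056 for Axl and -0.033 for C1qb, limma on log2(FPKM + 1) -0.037 and -0.026, and leaving out model 1 and QJSB 1 together -0.070 for C1qb. Leaving out a library gave -0.074 to 0.30 for Mertk, -0.067 to 0.25 for Axl, -0.36 to 0.50 for Gas6, -0.36 to 0.60 for Mfge8, -0.080 to 0.37 for C1qb and -0.10 to 0.33 for Tyrobp there, -0.25 to 0.10 for Trem2 in leucogen against model, -0.17 to 0.12 for Axl in QJSB against leucogen and -0.085 to 0.087 for Gas6 in leucogen against normal. Axl became -0.064 (total counts), -0.049 and -0.039 (limma with 0.1 and 1) in leucogen against model, and 0.028 (total counts) and 0.0017 (limma with 1) in QJSB against leucogen. Gas6 in leucogen against normal became -0.031 (total counts), -0.0016 (no filter), -0.016 (10 counts in every library), -0.040 and -0.029 (limma with 0.1 and 1). The cause was not tested. The Gpnmb value of model against normal fell from 6.37 to 4.65 and 2.06 on log2(FPKM + 0.1) and log2(FPKM + 1), whose pseudocounts exceed its level in normal, and 10 counts in every library removed it from the comparisons with normal. Scaling by total counts shifted the median of all genes by 0.12 in model against normal and by -0.17 in leucogen against model, and moved the share of higher calls from 45.8% to 56.3% and from 50.1% to 30.2%. At 3 to 6 counts in each normal library, depth limits how precisely the Gpnmb values against normal are known.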
